A study of Mus musculus with 15 samples.

Results

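The subunits of the mitochondrial respiratory chain and of ATP synthase that are encoded in the nucleus were followed across 15 two-colour cDNA arrays of a mouse lymphoid ES (embryonic stem) cell line. Members were taken by gene symbol alone: every named gene starting with Nduf, Uqcr, Atp5 or Cox followed by a digit from 4 to 8, together with Cyc1 and the Sdh genes of complex II, without the Ndufaf assembly factors. This gave 74 of the 9834 named genes on the array, carried by 104 probes: 31 genes of complex I, 4 of complex II, 8 of complex III, 16 of complex IV and 15 of complex V. Each array held RNA of the treated line and RNA of the same line without treatment. The treated RNA was in Cy5 on 8 arrays (1 to 8) and in Cy3 on 7 (9 to 15), the dye swaps. The labels give no agent, dose or time for the treatment, no genotype or mouse strain, and no account of what makes the line lymphoid. They do not say which arrays share an RNA extract or culture, so p-values measure the spread between arrays, which may be technical. One protocol text describes organ RNA hybridised against pooled RNA of control animals, whereas the channel names give the treated and the untreated line; the channel names were followed. Ratios carry no expression level, so pluripotency and lymphoid markers could not be checked as present or absent.

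The respiratory chain passes electrons from NADH (complex I) and succinate (complex II) through ubiquinone to complex III, cytochrome c and complex IV, which reduces oxygen. Complexes I, III and IV pump protons across the inner mitochondrial membrane, and complex V, ATP synthase, uses the gradient to make ATP. A few catalytic or redox subunits do the chemistry, and many small accessory subunits stabilise the enzymes. ES cells are known to rely strongly on glycolysis, and respiration rises in many lineages as they differentiate.

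The deposited values are log2 ratios, and the sources used here do not state which way a ratio runs on the dye swaps. The extreme values that stand for an empty channel (beyond 10 in size) were all above 0 on the 8 arrays whose treated RNA was in Cy5 and all below 0 on the 7 dye swaps. An empty Cy3 channel gives this pattern if a ratio above 0 means more RNA in the treated line on all 15 arrays, so that direction is likely but not settled. Both readings are therefore given for the members as a set and for each complex. For most single genes only the dye effect is given. The treatment estimate is the mean of both orientations. The dye effect is 0.5 times the mean ratio with Cy5 on the treated side less the mean ratio on the swaps. If the swaps had been deposited unturned, the quantity called dye effect here would be the response to treatment, and the treatment estimate would be the dye effect. Of the 74 members, 73 were measured on 4 or more arrays per orientation and were fitted with limma together with all other genes (9720 in all), and 67 had values on all 15 arrays. The testis isoform Cox8c was measured on only 3 dye swaps and was not fitted; its ratios ranged from -0.53 to 0.85 on the 8 arrays of the first orientation and from -1.60 to 0.45 on those 3.

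Between 19213 and 19973 probes were measured per array. Arrays 7, 8 and 15 stood apart: their highest correlation with another array over genes was r = 0.089, and they had 17 to 39 of the extreme values against 130 to 239 on the others. Arrays 5 and 6 were the most alike pair (r = 0.32). For the remaining arrays the highest correlation with another array lay between 0.144 and 0.213, so these correlated weakly too. For members named by the rule under the processing, a call changed by leaving out array 7, 8 or 15 alone is stated. Such changes are not given for other members. Other shifts without these arrays are given for some genes only. Values of single genes without arrays 5 and 6 are not given.

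No subunit gene passed limma's test for the treatment estimate, where 4 of all 9720 genes (0.0412%) did at an adjusted p under 0.05. The estimates lay above 0 for 39 members and below 0 for 34, with a median of 0.0067 (log2) against 0.0054 for all genes. At an unadjusted p under 0.05, 0 members were above 0 and 1 was below, where 3.94% and 3.08% of all genes were. That member was Ndufs8, an iron-sulphur subunit in the arm of complex I that reduces ubiquinone. Its ratio ran from -0.42 through a median of 0.03 to 0.64 with the treated RNA in Cy5 and from -0.85 through -0.47 to just below 0 on the swaps, so it was low on the swaps and mixed on the others. Its treatment estimate was -0.18 ± 0.08 (SE, n = 15 arrays; limma adjusted p = 0.704). For 57 of the 73 members the 95% interval of the treatment estimate, not corrected for the number of genes, lay within 0.3 (log2) of 0 on both sides.

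Estimates far from 0 belonged to members with few or faint measurements. Ndufa9, an accessory subunit of complex I, was at -0.58 ± 0.31 (SE, 8 arrays), Ndufv3 at 0.49 ± 0.37 (10 arrays) and Ndufab1, the mitochondrial acyl carrier protein, at 0.45 ± 0.23 (14 arrays). A value was counted as dim where, once its array's constant was removed, it lay within 0.0015 of log2(i/j) for whole numbers i and j of at most 6, as spots of a few signal units give. Such values made up 50.0% of the measurements of Ndufa9, 60.0% of those of Ndufv3 and 21.4% of those of Ndufab1, against 5.61% over the fitted members and 9.77% over all genes. Over the members on all 15 arrays the treatment estimate ran from -0.19 to 0.16.

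The members differed between the orientations instead. For the dye effect, 13 of 73 members (17.8%) passed limma's test above 0, where 1.92% of all genes passed in that direction, and 0 members passed below 0, where 0.689% of all genes did. The 13 were 4 subunit genes of ATP synthase (Atp5g3, Atp5e, Atp5j, Atp5l), 5 of complex IV (Cox6b1, Cox7a2, Cox6c, Cox7b, Cox7c) and 4 of complex I (Ndufb2, Ndufc2, Ndufb7, Ndufa2). Their mean ratios were above 0 with the treated RNA in Cy5 and below 0 with it in Cy3, while single arrays departed from this (on array 8, 7 of the 13 were above 0), with dye effects between 0.23 and 0.54 (log2). Their treatment estimates lay between -0.11 and 0.07, and the 95% intervals of these reached from -0.24 to 0.20 at the widest. On 8 of the 13 the orientations did not overlap at all: Atp5g3, Atp5l, Cox6b1, Cox7a2, Cox6c, Cox7b, Ndufc2 and Ndufb7. In this separation each array with the treated RNA in Cy5 lies above each dye swap. It was seen in 8 of 73 members (11%) and in 107 of 9720 genes (1.1%). The 13 were picked by the test of the same difference, so the share among them alone is not a further result.

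At an unadjusted p under 0.05, 24 members (32.9%) were above 0 for the dye effect, against 10.4% of all genes, and 5 (6.85%) were below, against 9.12%. By size alone, with no test, the estimate was above 0.2 for 17 members (23.3%) against 10.9% of all genes, and below -0.2 for 5 (6.85%) against 11.4%. The median over the members was 0.068 against -0.0034 over all genes. The members were also measured more precisely: the median SE was 0.073 for the members and 0.090 for all genes, which bears on the share that passed.

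**Figure D1:**
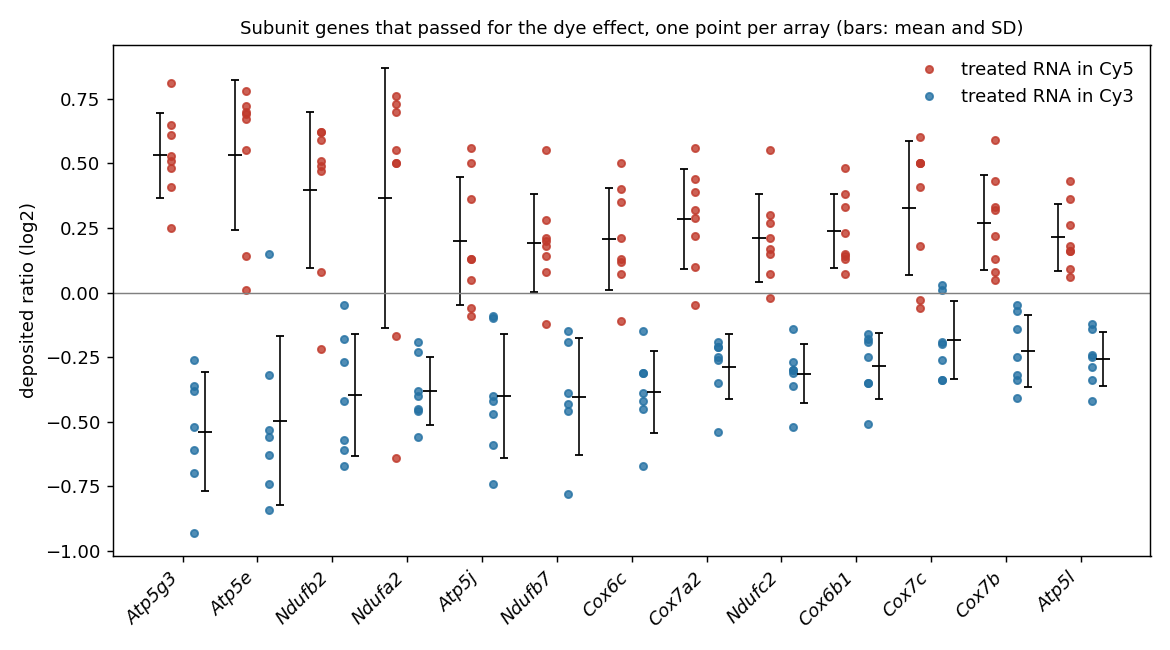
Deposited log2 ratio (vertical axis) of the 13 subunit genes that passed for the dye effect, 1 point per array, red with the treated RNA in Cy5 (8 arrays) and blue with it in Cy3 (7 arrays), with mean and SD as bars. Red points lie mostly above 0 and blue points mostly below, and the colours do not overlap for 8 of the genes.

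The count depended on a few arrays. It was 8 without array 5 and 8 without array 9, and in both fits those 8 were among the 13; leaving out any other single array gave 9 to 17. Without arrays 5 and 6, which resembled each other most, 2 of 72 members passed, while 32 of all genes did. Without arrays 7, 8 and 15, 17 of 71 passed, 16 of them above 0, and they included all 13. Fitted separately, neither orientation gave a call in limma (0 members and 0 genes in each). At an unadjusted p under 0.05, 19 members were above 0 and 2 below with the treated RNA in Cy5, and 4 were above and 16 below on the swaps; over all genes, in either direction, 1274 of 9795 and 1413 of 9744 reached that level. The medians of the members were 0.070 and -0.063, against 0.0069 and 0.0086 for all genes.

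Among the genes of ATP synthase, Atp5g3 and Atp5e gave the widest difference. Atp5g3 encodes subunit c, whose ring turns as protons pass. Its log2 ratio was 0.25 at the lowest, 0.52 at the median and 0.81 at the highest of the 8 arrays whose treated RNA was in Cy5, and -0.93, -0.52 and -0.26 on the 7 swaps. No array of either orientation crossed 0. The mean was 0.53 ± 0.16 (SD, n = 8) and -0.54 ± 0.23 (SD, n = 7), the dye effect 0.54 ± 0.06 (SE; limma adjusted p = 0.000947), and the ratio of the orientations 2.10-fold. Other genes encode the same mature subunit c, and whether the probe also detects their RNA was not tested.

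Atp5e encodes the epsilon subunit, which sits where the central stalk meets that ring. Its ratio was 0.01, 0.68 and 0.78 (lowest, median, highest) with the treated RNA in Cy5 and -0.84, -0.56 and 0.15 on the swaps. Only array 15, at 0.15, was above 0 among the swaps, and arrays 7 and 8, at 0.01 and 0.14, were the low ones of the other orientation. The dye effect was 0.51 ± 0.08 (SE; limma adjusted p = 0.00708). The subunits that do the catalysis in the F1 head did not share this. Atp5b, the catalytic beta subunit, lay the other way: -0.49, -0.11 and 0.24 with the treated RNA in Cy5 and above 0 on all 7 swaps (0.02, 0.34 and 0.47). Its dye effect of -0.19 ± 0.06 did not pass (limma adjusted p = 0.0942), but it passed below 0 without array 7 (-0.22, adjusted p = 0.0475 in limma) and without arrays 7, 8 and 15 (-0.24, adjusted p = 0.0443 in limma). Atp5d, the delta subunit beside epsilon in the stalk, was at -0.26 ± 0.09 (adjusted p = 0.123 in limma), Atp5a1 (alpha) at -0.04 ± 0.10 and Atp5c1 (gamma) at -0.04 ± 0.08. Array 7 stood at -1.44 for Atp5a1, and without it the dye effect was 0.05 and not called. Differences between these subunits were not tested.

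The peripheral stalk and the membrane part held the other 2 called genes. Atp5j, coupling factor 6 of the stalk that holds the head still, had a dye effect of 0.30 ± 0.07 (SE; limma adjusted p = 0.0295), with -0.09, 0.13 and 0.56 against -0.74, -0.42 and -0.09. Atp5l, subunit g in the membrane, was at 0.23 ± 0.05 (limma adjusted p = 0.0150), with 0.06, 0.17 and 0.43 against -0.42, -0.25 and -0.12. Both were below 0 on all 7 swaps. Of the other stalk genes, Atp5o (OSCP, which joins stalk and head) was at 0.17 ± 0.06 and Atp5h (subunit d) at 0.12 ± 0.05. Neither passed as an average of its probes. In the treatment estimate these 2 were at -0.11 ± 0.06 and 0.07 ± 0.05. The remaining 5 genes of complex V had dye effects from -0.03 (Atp5pb, subunit b, also of the stalk) to 0.12 (Atp5k).

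In complex IV, cytochrome c oxidase, the catalytic core comes from mitochondrial DNA, so the nuclear genes encode the accessory subunits around it. Cox6b1, which lies on the outer face where the monomers of the dimer meet, was above 0 on all 8 arrays whose treated RNA was in Cy5 (0.07, 0.19 and 0.48) and below 0 on all 7 swaps (-0.51, -0.25 and -0.16). Its dye effect was 0.26 ± 0.05 (SE; limma adjusted p = 0.0124). Cox7b, a small subunit with a single membrane helix, was likewise above 0 on 8 of 8 and below 0 on 7 of 7 (0.25 ± 0.05; limma adjusted p = 0.0246).

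Cox7a2 and Cox6c, also small membrane subunits, were at 0.29 ± 0.05 (limma adjusted p = 0.0126) and 0.30 ± 0.06 (adjusted p = 0.0126 in limma). In both, array 8 was the 1 array with the treated RNA in Cy5 below 0, at -0.05 and -0.11, and all swaps were below 0. Cox7c was at 0.25 ± 0.06 (limma adjusted p = 0.0404); here arrays 7 and 8 were just below 0 and swaps 12 and 13 just above, so the orientations overlapped. Cox5b and Cox5a, which bind the matrix side, were at 0.14 ± 0.05 and 0.09 ± 0.05 and did not pass, nor did Cox4i1, the largest nuclear-encoded subunit, at 0.12 ± 0.09.

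The paralogous isoforms can be set side by side. Cox7a2 is the isoform of most tissues and Cox7a1 that of heart and skeletal muscle, and the dye effect of Cox7a1 was -0.02 ± 0.05, with values from -0.32 to 0.24 over both orientations. For subunit 6a, the general Cox6a1 was at -0.06 ± 0.10 and the muscle form Cox6a2 at 0.03 ± 0.08. For subunit 8, the general Cox8a was at -0.22 ± 0.09 and the muscle form Cox8b at 0.07 ± 0.08. For subunit 6b, Cox6b1 passed as given above and the testis form Cox6b2 was at -0.06 ± 0.19, with swaps from -1.60 to 1.80. For subunit 7b, Cox7b passed as given above, and its paralogue Cox7b2, whose dye effect was the lowest of the fitted members, was at -0.39 ± 0.12 (adjusted p = 0.0938 in limma), with values from -0.82 to 0.09 against -0.36 to 1.68. Treatment estimates of all these isoforms lay between -0.12 (Cox6a2) and 0.09 (Cox8b), and differences within the pairs were not tested.

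Of the 31 complex I genes, 4 passed. None of the 4 belongs to the conserved catalytic core, but few of the 31 do, so this is not read as a difference. Ndufb2, Ndufb7 and Ndufc2 are accessory subunits of the arm in the membrane, and Ndufa2 is one of the arm that takes electrons from NADH. Ndufb2 was at 0.40 ± 0.07 (SE; limma adjusted p = 0.0126): values were -0.22, 0.50 and 0.62 with the treated RNA in Cy5, where array 7 was the low one, and -0.67, -0.42 and -0.05 on the swaps. Ndufc2 (0.26 ± 0.05; limma adjusted p = 0.0131) ran from -0.02 to 0.55 against -0.52 to -0.14, and Ndufb7 (0.30 ± 0.06; limma adjusted p = 0.0253; no value on array 14) from -0.12 to 0.55 against -0.78 to -0.15. Ndufa2 was close to the threshold at 0.37 ± 0.10 (limma adjusted p = 0.0493): 6 of its values with the treated RNA in Cy5 lay between 0.50 and 0.76, while arrays 7 and 8 stood at -0.17 and -0.64. Without array 15, neither Ndufa2 nor Cox7c passed (limma adjusted p = 0.0537 for both). This was not particular to array 15. Leaving out 1 array at a time, Ndufa2 passed in 2 of 15 fits and Cox7c in 4. Atp5j passed in 9 of these fits, Ndufb7 in 10 and Cox7b in 12, and the other called genes passed in all 15.

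Close to the threshold but not called were Ndufa7 (0.27 ± 0.07, limma adjusted p = 0.0507), Ndufa1 (0.18 ± 0.05, adjusted p = 0.0641 in limma) and Ndufs8 (0.29 ± 0.08, adjusted p = 0.0778 in limma). Without array 7, Ndufa1 passed (0.20, limma adjusted p = 0.0440). Ndufa1, an essential membrane subunit on the X chromosome, had the lowest p for the treatment estimate in this complex after Ndufs8, at 0.10 ± 0.05. Among the core subunits, Ndufv1, which binds NADH and FMN, was at 0.06 ± 0.07 and Ndufs1 at 0.16 ± 0.14. Ndufv2, the partner of Ndufv1, at -0.37 ± 0.23, had 1 value of -3.66, on array 8. Ndufs3 was at -0.17 ± 0.06 and Ndufs7 at -0.02 ± 0.05, both in the arm that reduces ubiquinone. The 5 members below 0 at an unadjusted p under 0.05 were Ndufs3, Cox7b2, Cox8a, Atp5b and Atp5d, named after their values were seen.

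Complexes II and III held no called gene in either term in limma over all 15 arrays. For the dye effect, 1 of 4 and 1 of 8 genes (Sdhd and Cyc1) reached an unadjusted p under 0.05. Over all genes, 1895 of 9720 reached that level. For the treatment estimate, 0 genes of either complex did, against 682 of 9720 over all genes. In complex II, which also serves the citric acid cycle, Sdhd, a membrane anchor, was at 0.23 ± 0.09 for the dye effect and Sdhc, the other anchor, at -0.10 ± 0.08. The iron-sulphur subunit Sdhb was at 0.06 ± 0.07 and the flavin subunit Sdha, which oxidises succinate, at -0.16 ± 0.08. The treatment estimates were 0.07 ± 0.09, 0.07 ± 0.08, -0.11 ± 0.07 and 0.07 ± 0.08 in that order, and values of all 4 lay on both sides of 0 in both orientations. In complex III, Cyc1, which carries the haem that passes electrons to cytochrome c, was at 0.19 ± 0.07 (adjusted p = 0.138 in limma). The Rieske iron-sulphur protein Uqcrfs1 was at 0.00 ± 0.16 and the core proteins Uqcrc1 and Uqcrc2 at -0.00 ± 0.07 and 0.03 ± 0.06. The small subunits Uqcr10, Uqcr11, Uqcrq and Uqcrh were at 0.17 ± 0.12, 0.08 ± 0.07, 0.04 ± 0.06 and -0.03 ± 0.05. The value of Uqcr10 on array 7 was -1.40, while its other values with the treated RNA in Cy5 ran from -0.08 to 0.69. Without array 7 its dye effect was 0.28 and passed (limma adjusted p = 0.0221), and without arrays 7, 8 and 15 it was 0.31 (adjusted p = 0.0145 in limma).

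**Figure D2:**
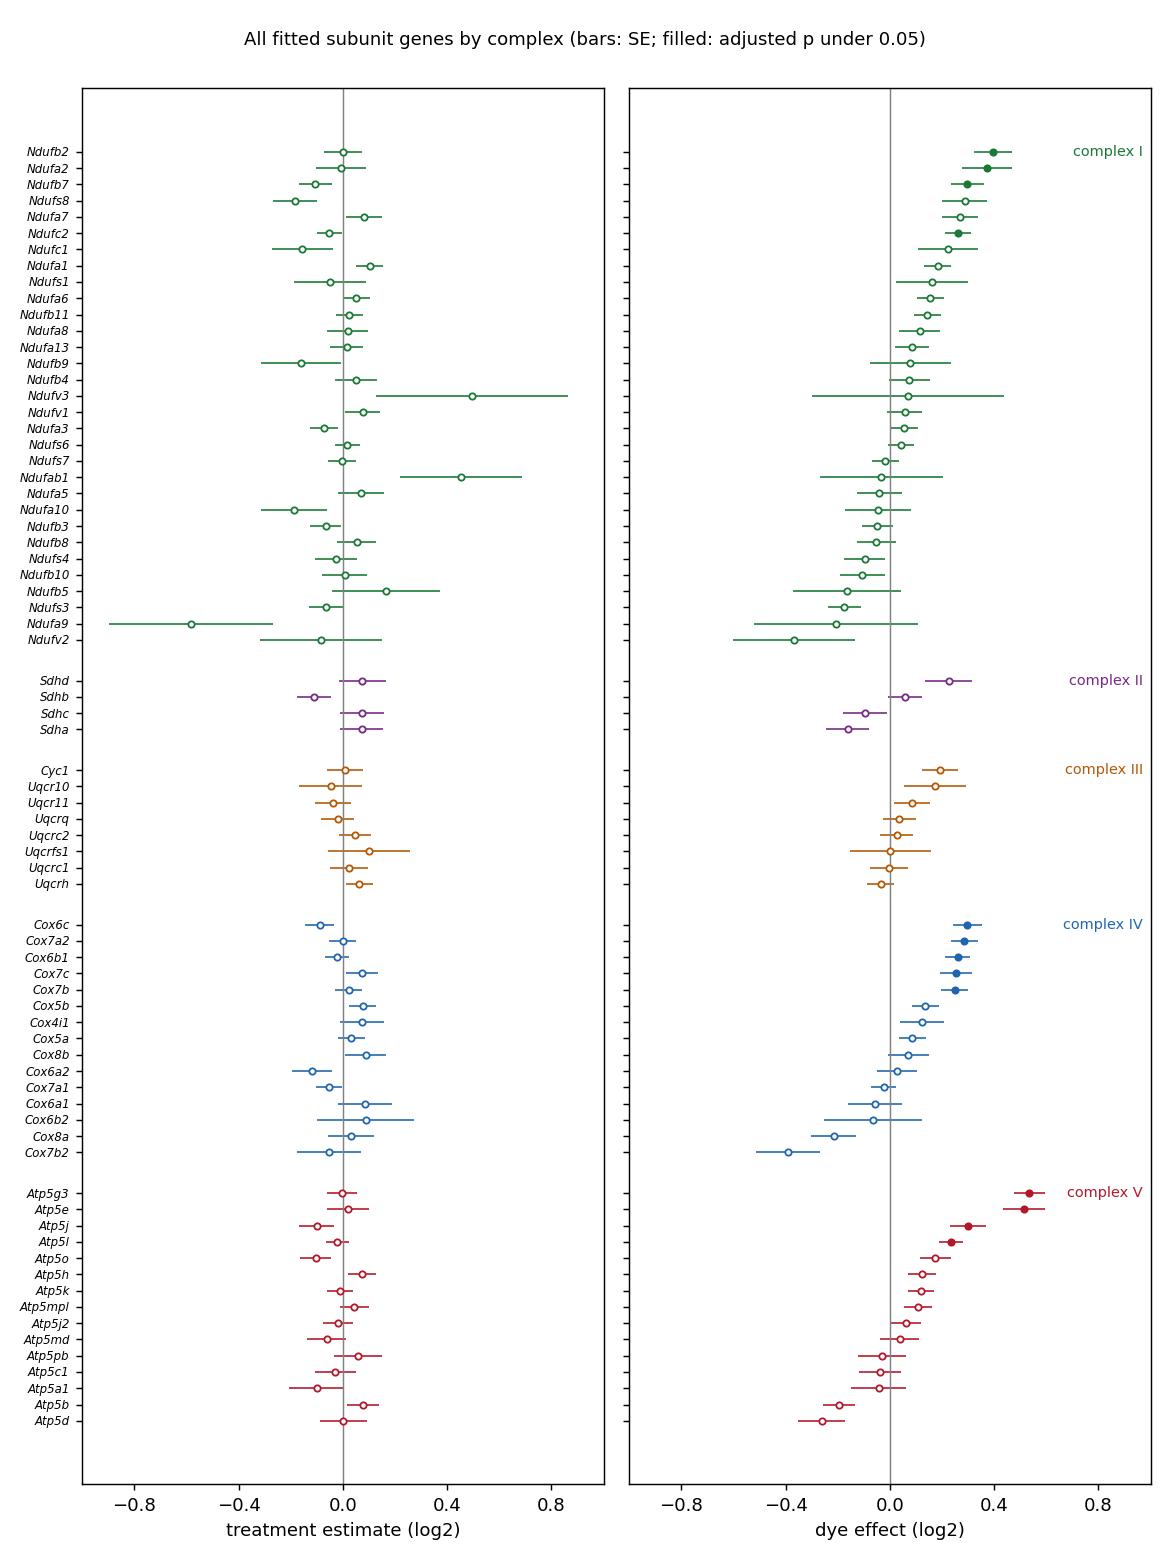
Treatment estimate (left) and dye effect (right) of the 73 fitted subunit genes in log2 units, by complex, with SE as bars; filled points have an adjusted p under 0.05 in limma. Filled points appear in the right panel alone, 13 in all, in complexes I, IV and V, and the treatment estimates of members on all 15 arrays lie between -0.19 and 0.16.

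Set against each other as groups, the complexes had median dye effects of 0.11 (V), 0.086 (IV), 0.068 (I), 0.031 (III) and -0.019 (II), with 4 of 15, 5 of 15, 4 of 31, 0 of 8 and 0 of 4 genes called. Their median treatment estimates were -0.012, 0.030, 0.00029, 0.016 and 0.073. On each array, the median ratio of complex V ran from -0.15 to 0.18 with the treated RNA in Cy5 (mean 0.10 ± 0.11 SD, above 0 on 7 of 8) and from -0.29 to -0.04 on the swaps (-0.11 ± 0.09 SD, below 0 on 7 of 7). Complex IV gave 0.12 ± 0.13 (above 0 on 7 of 8) and -0.10 ± 0.06 (below 0 on 7 of 7), and complex I 0.10 ± 0.11 (above 0 on 6 of 8) and -0.10 ± 0.07 (below 0 on 7 of 7). The medians of these 3 complexes differed in sign between the orientations on most arrays, and array 8 was below 0 for each of them. Complex III was above 0 on 6 of 8 and on 2 of 7 arrays, with means of 0.13 ± 0.14 and -0.03 ± 0.13 (SD). The 4 genes of complex II followed no such pattern, with means of 0.01 ± 0.20 and 0.05 ± 0.21 (SD). The order of the complexes is a description and was not tested. It depended on the choice of probe and on single arrays: with the most measured probe per gene the median dye effect of complex V was 0.0012. Leaving out 1 array moved that of complex III between 0.014 (without array 2) and 0.073 (without array 7), and that of complex II between -0.041 (without array 7) and 0.0056 (without array 8).

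**Figure D3:**
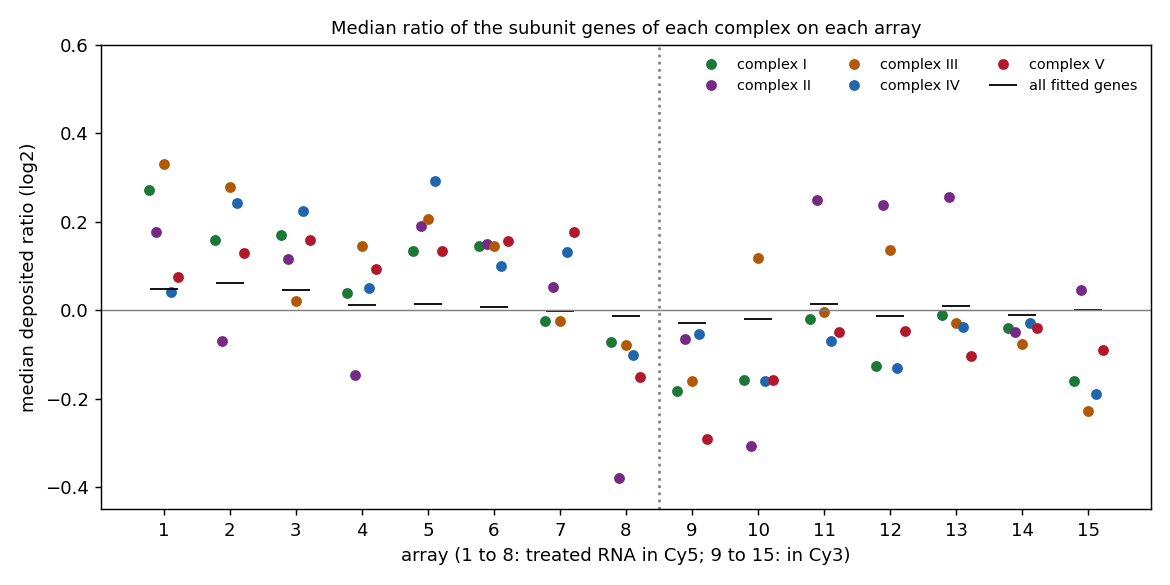
Median deposited log2 ratio (vertical axis) of the subunit genes of each complex on each of the 15 arrays (horizontal axis), with the median of all fitted genes as a black dash. Complexes I, IV and V lie below 0 on all 7 dye swaps and above 0 on arrays 1 to 6, while complex II scatters on both sides.

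Probes of 1 gene did not always give the same picture. Of the 23 members with several probes, 12 had dye effects of the same sign on all their probes. The called genes with a pair of probes were Atp5l, Cox6b1, Cox7b and Ndufc2. In each of them both probes were above 0 but only 1 passed in the fit of all 19860 probes. The pairs were 0.35 ± 0.05 and 0.12 ± 0.05 for Atp5l, 0.37 ± 0.05 and 0.15 ± 0.06 for Cox6b1, 0.43 ± 0.07 and 0.06 ± 0.06 for Cox7b, and 0.39 ± 0.05 and 0.13 ± 0.06 for Ndufc2 (SE). The other 9 called genes have 1 probe each. Among members not called, 1 probe each of Atp5o and Atp5mpl passed in the fit of all probes. For Atp5o it was at 0.35 ± 0.06 (limma adjusted p = 0.0145), with the other probe at 0.00 ± 0.09. For Atp5mpl it was at 0.33 ± 0.07 (limma adjusted p = 0.0194), with the others at -0.15 ± 0.14 and 0.14 ± 0.06. Probes differed by over 0.5 in Cox4i1 and Ndufb8. The 4 probes of Cox4i1 gave -0.25 ± 0.07, 0.02 ± 0.13, 0.28 ± 0.08 and 0.50 ± 0.26, and those of Ndufb8 -0.33 ± 0.12 and 0.18 ± 0.07, so the averages of these genes describe none of their probes. Dim values made up 2.32% of the measurements of the 13 called genes and 5.61% of those of all fitted members.

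Genes of the respiratory chain are known to be driven by shared promoter elements, among them sites for the ETS factor GABP (also called NRF2), for NRF1 and for YY1. Promoters of called and uncalled members are shown as sequence context, and no link between them and the ratios was tested. Windows from 250 bases before to 50 after a start were found for 61 of the 74 members (66 windows, RefSeq, GRCm38.p6). Both strands were searched for CCGGAAG (ETS), TGCGCA (contained in the NRF1 consensus), AAGATGG (YY1) and CCAAT, none of which contains another. CCGGAAG was in 24.2% of the members' windows and in 15.3% of those of all fitted genes, TGCGCA in 24.2% and 12.5%, AAGATGG in 16.7% and 6.9%, and CCAAT in 45.5% and 37.2%. Among 12 windows of called members, 5 held CCGGAAG, 1 held TGCGCA, 2 held AAGATGG and 7 held CCAAT; among 54 windows of members that were fitted and not called the counts were 11, 15, 9 and 23. These are descriptions of letters with no test, and a match is not a site. The 120 bases just before the start follow, 5′ to 3′ along the gene, with matches to these motifs in capitals: Atp5g3 chr2:73911327-73911446 (- strand), Atp5e chr2:174464102-174464221 (- strand), Atp5j chr16:84834977-84835096 (- strand), Cox6b1 chr7:30626115-30626234 (- strand), Ndufb7 chr8:83566638-83566757 (+ strand), Sdhd chr9:50603850-50603969 (- strand). They are the promoters of the 2 genes with the widest dye effect, of 3 more called genes with an ETS match, and of Sdhd, which was not called and has both an ETS and an NRF1 match.
Atp5g3: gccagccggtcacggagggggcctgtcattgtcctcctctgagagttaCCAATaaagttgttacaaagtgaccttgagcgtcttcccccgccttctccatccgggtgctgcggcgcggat
Atp5e: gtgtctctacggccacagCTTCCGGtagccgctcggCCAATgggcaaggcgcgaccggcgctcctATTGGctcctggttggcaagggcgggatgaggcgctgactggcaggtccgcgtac
Atp5j: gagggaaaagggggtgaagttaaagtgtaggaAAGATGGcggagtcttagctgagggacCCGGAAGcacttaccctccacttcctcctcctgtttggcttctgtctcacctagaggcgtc
Cox6b1: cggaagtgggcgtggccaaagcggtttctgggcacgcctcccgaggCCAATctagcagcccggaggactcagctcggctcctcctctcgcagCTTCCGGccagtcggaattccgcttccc
Ndufb7: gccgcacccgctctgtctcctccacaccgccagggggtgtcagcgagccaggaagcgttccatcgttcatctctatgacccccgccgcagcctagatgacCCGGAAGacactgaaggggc
Sdhd: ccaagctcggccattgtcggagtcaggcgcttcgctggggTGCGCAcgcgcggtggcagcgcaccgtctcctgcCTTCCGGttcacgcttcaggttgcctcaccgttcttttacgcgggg

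In these stretches, Atp5e and Cox6b1 each carry CCAAT, and the ETS letters on the reverse strand, and the Atp5j start shown carries the YY1 and ETS letters. The same stretch of the other Atp5j start in RefSeq (chr16:84835626-84835745) holds none of the 4 motifs. Ndufb7 has the ETS letters near the start. Atp5g3, with the widest difference of all members, has a CCAAT match and no ETS match here.

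Other genes of mitochondrial energy metabolism, from lists chosen for their textbook role, gave no call in the treatment estimate. For the dye effect, 2.61% of all genes passed in either direction. Of 34 factors that assemble the complexes, 0 passed for it (median 0.0066), and 5 reached an unadjusted p under 0.05. In the treatment estimate 2 of them did. Over all genes 1895 and 682 of 9720 reached that level, larger shares in both terms. The 2 were Taco1, an activator of translation of a complex IV subunit, at -0.23 ± 0.08 (SE) and Coa5, an assembly factor of complex IV, at -0.18 ± 0.07. Of 18 genes for electron carriers and for exchange across the mitochondrial membranes, Vdac1, a pore of the outer membrane, passed above 0 at 0.30 ± 0.06 (limma adjusted p = 0.0141), and so did Slc25a3, the phosphate carrier, at 0.50 ± 0.12 over 11 arrays (adjusted p = 0.0417 in limma). Of 16 genes of pyruvate oxidation and the citric acid cycle, Fh1, fumarase, passed at 0.31 ± 0.05 (adjusted p = 0.00870 in limma); its list had a median of -0.061. Of 14 genes for mitochondrial gene expression and biogenesis, Esrra, an orphan nuclear receptor that induces oxidative genes, passed at 0.26 ± 0.06 (adjusted p = 0.0331 in limma). In that list, Nrf1 had a treatment estimate of -0.15 ± 0.06 and did not pass. Of 18 genes of protein import, Timm8b passed at 0.25 ± 0.06 (adjusted p = 0.0384 in limma). Among 10 genes of glycolysis 0 passed (median -0.042) and 3 reached an unadjusted p under 0.05. Aldoa, aldolase, and Tpi1, the next enzyme, were at -0.17 ± 0.06 and -0.20 ± 0.08. Of 13 genes of the vacuolar proton pump, a rotary relative of ATP synthase, Atp6v0a1 passed at 0.33 ± 0.07 (adjusted p = 0.0248 in limma). Subunits encoded by mitochondrial DNA, Ndufa4, Cox4i2, Cox7a2l, Atp5g1, Atp5g2 and the ATP synthase inhibitor were not analysed here.

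Against 3 other abundant machineries, the share of subunit genes called for the dye effect (17.8%) stood beside 11.7% of 60 cytosolic ribosomal proteins (7 above 0), 6.35% of 63 mitochondrial ribosomal proteins (3 above 0 and 1 below) and 2.56% of 39 proteasome genes (1 above 0). The medians were 0.068, 0.046, 0.052 and 0.017. These groups share the arrays, and the differences between them were not tested, so nothing is claimed as particular to the subunit genes. Of the cell type markers, 1 of 5 myeloid markers passed for the dye effect, and 0 of 6 pluripotency, 0 of 5 lymphoid and blood, 0 of 2 erythroid and 0 of 5 fibroblast markers did. No marker passed for the treatment estimate. In the treatment estimate, 3 of 5 myeloid, 2 of 5 lymphoid and blood and 1 of 6 pluripotency markers reached an unadjusted p under 0.05. Of the erythroid and fibroblast markers, 0 of 2 and 0 of 5 did, against 682 of 9720 over all genes. The treatment estimates of the 5 myeloid markers were all below 0, with a median of -0.18. The part of the markers in the result was not tested. In RNA from bulk cultures, fewer cells of a type and less RNA per cell cannot be told apart.

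**Figure D4:**
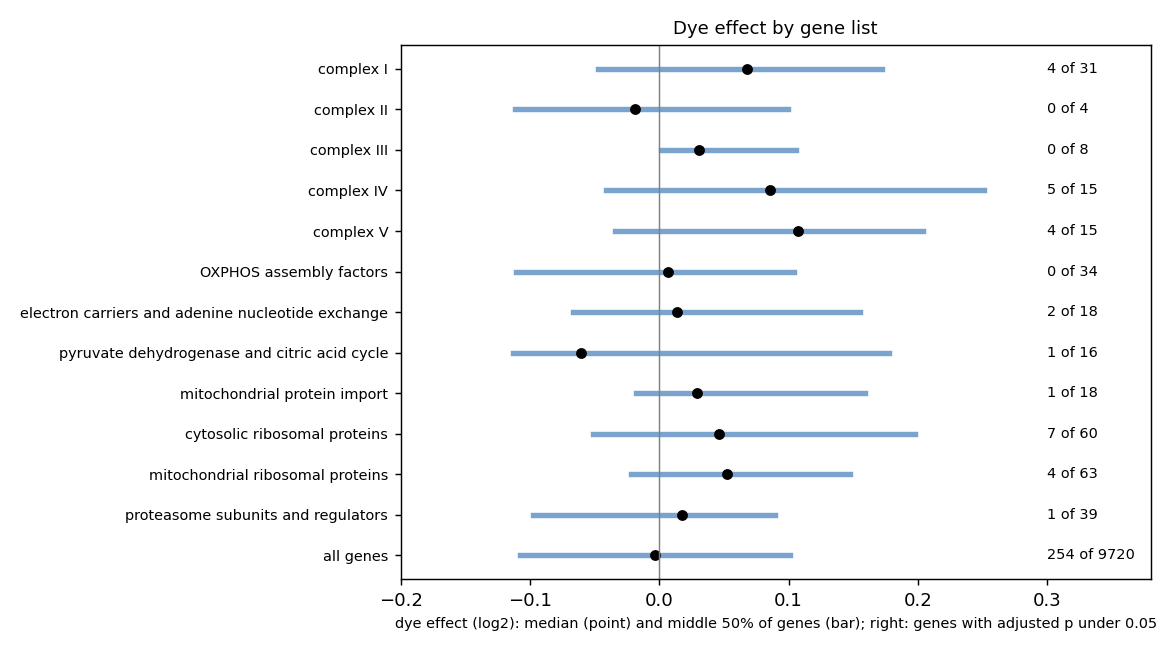
Dye effect (horizontal axis, log2) by gene list, with the median as a point and the middle 50% of genes as a bar; the count at the right gives genes with an adjusted p under 0.05 in limma. Complexes V and IV have the highest medians of the 13 sets shown, 0.11 and 0.086, though that of complex V is 0.0012 with the most measured probe per gene, and each bar but that of complex III crosses 0.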

How the data were processed

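The deposited values were log2 ratios of 2-colour cDNA arrays, 1 column per array, used as the authors deposited them. How background and dye bias were corrected, and the ratio's direction, was not stated: not given in the sources used here. Values beyond 10 in size (1999 in all, 3 among members) were left out as placeholders for an empty channel. Of 20205 probes, 13891 carried 1 gene symbol in the platform annotation, 5 several and 6309 none, and 13855 matched RefSeq (GRCm38.p6); probes of a gene were averaged. limma 3.58.1 (R 4.3.3; lmFit, eBayes, Benjamini-Hochberg adjustment over the 9720 genes measured on 4 or more arrays per orientation) fitted the treatment estimate and the dye effect, and a gene was called at an adjusted p under 0.05. The number of arrays limits the precision. Named by rule were members called in either term, the 3 of each complex with the smallest p in either term, all of complex II, the F1 and c-ring subunits, tissue isoform pairs, members whose probes differed by over 0.5, and from each other list the called genes and those with the smallest p. Other subunits were named for their role or extreme estimate after their values were seen. Members and lists were chosen with earlier results of these data known. The fit was tested on simulated data. Of 100 genes given a dye effect of 0.25 (log2) 26% were called, and of 100 given 0.5 64% were, with 4 false calls. Uncalled genes can therefore hold dye effects of these sizes. No shift in the treatment estimate was simulated. Alternatives changed scaling, filters, probe choice, arrays and the turning of the swaps.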

Additional observations from a re-analysis of the deposited data

Results flagged for a closer look

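For 13 subunit genes the arrays with the treated RNA in Cy5 differed from those with it in Cy3 by limma's test of that difference (adjusted p under 0.05). The dye effects, each 0.5 times the difference on the log2 scale, were 0.54 for Atp5g3, 0.51 for Atp5e, 0.40 for Ndufb2, 0.37 for Ndufa2, 0.30 for Atp5j, 0.30 for Ndufb7, 0.30 for Cox6c, 0.29 for Cox7a2, 0.26 for Ndufc2, 0.26 for Cox6b1, 0.25 for Cox7c, 0.25 for Cox7b and 0.23 for Atp5l. Each of these genes had higher ratios with the treated RNA in Cy5.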

How the results depend on the processing

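The count of members called for the treatment estimate was 0 under each alternative but the turning of the dye swaps. With the swaps turned it was 13 and the count for the dye effect 0, the medians of complex V became 0.107 (treatment) and -0.012 (dye), and the dye effects reversed to -0.0035 (Atp5g3), -0.10 (Atp5j), -0.022 (Atp5l), -0.023 (Cox6b1), -0.089 (Cox6c), -0.0013 (Cox7a2), -0.0072 (Ndufa2), -0.11 (Ndufb7) and -0.052 (Ndufc2), since turning exchanges the terms. With the treated RNA in Cy5 alone the treatment medians were 0.098 (complex I) and 0.16 (complex IV). With the most measured probe per gene the dye median of complex V was 0.0012. The cause was not tested. Leaving out each array in turn gave 8 (without array 5 or array 9) to 17 (without array 7) members called for the dye effect, and 2 without arrays 5 and 6, an alternative chosen after seeing the data. Other scalings, filters, probe choices, array weights, a random block of arrays n and n + 8, and leaving out arrays 7, 8 and 15 gave 11 to 18. Leaving aside the fit with the swaps turned, Atp5g3 and Atp5e were called for the dye effect in 27 of 27 fits, Ndufa2 in 7 and Cox7c in 12. Moving Ndufa4 to complex IV was not run, as no probe carries that name. The labels give no pairing of arrays; the block of arrays n and n + 8 had a correlation of -0.0089 over genes and left 12 members called. Ratios with no signal leave depth unknown, so faint genes are marked only by their dim values.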
